A study of Mus musculus with 20 samples.

Results

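The genes of the proteasome were read in heart RNA of 20 mouse libraries. The members were the genes whose symbol begins with Psma, Psmb, Psmc, Psmd, Psme, Psmf or Psmg followed by a digit, without pseudogenes, and that reached 10 counts in 3 or more libraries. Of 29339 genes in the deposited table, 50 matched the name and 49 were kept. Psmb11, the thymus-specific core subunit, was not kept because no library held 10 of its counts. Psmc3ip carries the name of the family but encodes a partner of meiotic recombinases and no subunit, and is given apart.

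The study compared hearts of C57BL/6 wild type (WT) mice and of Tecrl knockout (KO) mice, of both sexes, at 8 weeks. Its methods give no strain for the KO mice. Tecrl encodes an endoplasmic reticulum protein related to an enzyme of fatty acid elongation, and the deletion was described in the sources used here only as a knockout. RNA was taken from heart tissue, in which cardiomyocytes, fibroblasts, endothelial cells and leukocytes are sequenced together, and the sources used here do not say which parts of the heart were taken. The libraries fell into 5 WT and 5 KO with a male label, and 3 WT and 7 KO with a female label. Their names form 2 series. S1 to S3 are labelled female WT, S4 to S6 female KO, S7 to S9 male WT and S10 to S12 male KO. WT1 and WT2 are labelled male WT, TKO5 and TKO6 male KO, and TKO1 to TKO4 female KO, so that the second series holds no library labelled female WT. The labels do not say what the names stand for. The study describes a library from each mouse and 3 mice for each sex and genotype. That is fewer mice than libraries in every group but female WT. The labels give no animal for a library, and p-values measure the spread between these libraries.

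Total counts ran from 12540002 to 20038593 per library, and the members took 0.369 to 0.473% of them. Mitochondrial genes took 15.3 to 30.4%. Tecrl did not separate the genotype labels, with 51.9 to 123 CPM (counts scaled to a common library total after correction by TMM factors of 0.892 to 1.11) over all libraries, so the groups are named by their labels. In 6 libraries the sex-linked genes went against the label. S4, S5 and S6, labelled female, held Y-linked transcripts and at most 0.256 CPM of Xist, while S7, S8 and S9, labelled male, held Xist and 0 counts of the Y-linked genes. Within the S series the genotype label and sex-linked expression therefore coincide and cannot be told apart there, whereas the sex label does not follow sex-linked expression. Transcripts of atrial cardiomyocytes stood out in S7, S9, S11 and S12, where 6 atrial markers summed to 7064, 5922, 7276 and 2073 CPM, against 541 in S10 and 10.3 to 351 in the other libraries. Bmp10, a growth factor of the right atrium, was at 2096, 1176 and 174 CPM in S7, S9 and S12 and at 0.0722 in S11.

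The proteasome is the protease that degrades proteins tagged with ubiquitin, and in the heart it turns over sarcomere and membrane proteins. Its core is a barrel whose outer rings are built of alpha subunits, which gate the entry, and whose inner rings are built of beta subunits, of which Psmb5, Psmb6 and Psmb7 carry the cutting sites. Interferon induces a second set of cutting subunits, Psmb8, Psmb9 and Psmb10, which take the places of Psmb5, Psmb6 and Psmb7 in the immunoproteasome, a form that leukocytes hold constitutively and that produces peptides for class I antigen presentation. A regulatory particle caps the barrel. Its base holds the ATPases Psmc1 to Psmc6, which unfold substrates, and its lid holds the deubiquitinase Psmd14. Psme1 and Psme2 together form an interferon-inducible activator of the core, Psme3 and Psme4 form other activators, and Psmf1 is an inhibitor.

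The members varied in these hearts along separate lines. The inducible subunits Psmb8, Psmb9 and Psmb10 and the activator genes Psme1 and Psme2 were called higher in the S-numbered libraries over all 20, where 8.92% of all genes were. Between S7 to S12 and S1 to S6, 4 of them, without Psmb9, were called higher in S1 to S6, where 0.318% of all genes were, and leaving out 1 library moved that count from 0 (without S2 or S12) to 5 (without S8). With male labels alone 1 of these 5 genes, Psmb8, was called between the series. The base subunit Psmd1, the activator gene Psme4 and the core subunit Psmb7 varied between libraries of the same group. No member passed an adjusted p of 0.05 between the genotype labels in any of the 3 genotype comparisons or in the test of their difference between labelled sexes.

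The promoters of the 5 genes that moved together, and of the constitutive subunits Psmb5 and Psmb6 that Psmb8 and Psmb9 replace, are shown because Psmb8, Psmb9, Psmb10, Psme1 and Psme2 are classed as inducible genes. Each window runs from 250 bases before to 50 bases after the RefSeq start site (GRCm38.p6), 5′ to 3′ on the strand of the gene, and capitals mark a match to 1 of the first 4 motifs described below. Matches to CCAAT are not marked. They lie at chr17:34197945-34198244 (plus strand), chr17:34187281-34187580 (minus), chr8:105938343-105938642 (minus), chr14:55578244-55578543 (plus), chr14:55591052-55591351 (minus, the first of 2 listed starts), chr14:54617946-54618245 (minus) and chr11:70525107-70525406 (plus).
Psmb8: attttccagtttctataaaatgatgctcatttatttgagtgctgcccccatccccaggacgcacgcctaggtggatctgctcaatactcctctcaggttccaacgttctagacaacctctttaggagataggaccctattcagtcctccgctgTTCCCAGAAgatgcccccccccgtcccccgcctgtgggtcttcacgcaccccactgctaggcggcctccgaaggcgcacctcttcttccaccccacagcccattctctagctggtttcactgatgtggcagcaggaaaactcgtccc
Psmb9: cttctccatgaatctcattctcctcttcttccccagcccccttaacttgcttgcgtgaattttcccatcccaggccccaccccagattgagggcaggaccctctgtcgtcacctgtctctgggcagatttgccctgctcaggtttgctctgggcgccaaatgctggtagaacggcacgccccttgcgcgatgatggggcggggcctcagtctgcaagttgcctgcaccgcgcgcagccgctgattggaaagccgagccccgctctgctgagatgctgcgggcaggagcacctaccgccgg
Psmb10: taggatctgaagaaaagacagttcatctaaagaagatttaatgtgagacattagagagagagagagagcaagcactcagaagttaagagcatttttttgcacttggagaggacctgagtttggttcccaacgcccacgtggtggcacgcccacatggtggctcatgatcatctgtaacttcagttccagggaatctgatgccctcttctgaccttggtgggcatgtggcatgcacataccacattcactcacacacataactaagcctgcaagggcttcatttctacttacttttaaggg
Psme1: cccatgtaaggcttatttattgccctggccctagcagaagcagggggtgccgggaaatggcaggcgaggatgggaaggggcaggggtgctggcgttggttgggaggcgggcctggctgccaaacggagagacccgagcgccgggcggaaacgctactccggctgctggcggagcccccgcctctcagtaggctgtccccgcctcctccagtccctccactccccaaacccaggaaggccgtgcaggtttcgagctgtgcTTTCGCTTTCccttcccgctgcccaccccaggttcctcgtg
Psme2: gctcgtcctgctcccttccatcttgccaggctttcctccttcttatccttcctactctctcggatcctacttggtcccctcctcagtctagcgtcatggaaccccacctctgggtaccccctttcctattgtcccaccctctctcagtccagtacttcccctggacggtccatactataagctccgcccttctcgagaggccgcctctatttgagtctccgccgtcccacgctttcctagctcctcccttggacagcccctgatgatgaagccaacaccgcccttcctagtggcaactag
Psmb5: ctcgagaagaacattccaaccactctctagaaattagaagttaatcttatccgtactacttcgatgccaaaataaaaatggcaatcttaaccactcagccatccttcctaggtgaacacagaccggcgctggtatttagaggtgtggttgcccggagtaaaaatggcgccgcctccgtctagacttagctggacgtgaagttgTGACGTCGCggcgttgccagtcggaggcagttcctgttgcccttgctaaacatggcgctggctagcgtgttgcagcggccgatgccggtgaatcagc
Psmb6: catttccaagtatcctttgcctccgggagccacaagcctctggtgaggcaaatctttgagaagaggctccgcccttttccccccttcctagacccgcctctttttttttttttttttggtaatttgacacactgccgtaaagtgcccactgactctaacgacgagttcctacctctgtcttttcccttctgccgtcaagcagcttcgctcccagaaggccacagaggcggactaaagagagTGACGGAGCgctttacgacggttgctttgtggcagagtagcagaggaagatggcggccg

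The motifs were searched on both strands, and a match is a string of letters, not a known site. RefSeq windows were held for 41 of the 49 members, in 44 windows, and those of Psma8, Psmb1, Psmb2, Psmb7, Psmc3, Psmd3, Psmd7 and Psmg2 were not used here. TTCNNNGAA, an interferon-gamma-activated pattern, was found in the Psmb8 window beginning 97 bases before the start, in 3 member windows (6.82%) and in 8.30% of all 32851 windows. The pattern of interferon regulatory factors, GAAA, 2 free bases and GAAA, was found in the Psme1 window on the opposite strand 9 bases after the start, in 5 member windows (11.4%) and in 3.44% of all windows. TGACNNNGC, the antioxidant response pattern to which Nfe2l1 and Nfe2l2 bind, was found at 47 bases before the Psmb5 start and 9 bases before the Psmb6 start, in 6 member windows (13.6%) and in 12.4% of all. The NF-kB pattern, GGGA, 1 free base and TTTCC, was in 0 member windows and in 0.411% of all. CCAAT, the box bound by NF-Y, was in 14 member windows (31.8%), that of Psmb9 among them, and in 37.4% of all.

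On the FPKM scale, reads per kilobase of gene scaled to depth, the means over 20 libraries ran in the alpha rings from 26.2 for Psma2 to 106 for Psma6. Among the beta subunits without a cutting site they ran from 27.1 for Psmb1 to 80.7 for Psmb4. Among the constitutive cutting subunits Psmb6 was highest at 78.2 ± 9.09 FPKM (SD, n = 20) and Psmb7 lowest at 23.3 ± 5.52 FPKM. The base ATPases ran from 22.2 FPKM for Psmc2 to 82.9 for Psmc5, with ranges over the libraries that did not overlap. That gap rests on the lengths used, 5031 bases for Psmc2 and 1394 for Psmc5. Their counts were alike, with 1901 and 1914 in WT1, and both subunits stand in equal number in the complex. The lid ran from 12.9 FPKM for Psmd11 to 45.6 for Psmd7. Among the scaffold and ubiquitin-binding subunits of the base, Psmd2 had 48.9 FPKM and Psmd1 8.05.

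The assembly chaperones, which build the complex and leave it, were lower and ran from 0.905 FPKM for Psmg3 to 23.6 for Psmg4. Of the activators, Psme1 was highest at 59.2 ± 23.1 FPKM and Psme2b lowest at 1.47 ± 0.688 FPKM. The longest Psme2b transcript is 99.37% identical to that of Psme2 over 794 bases, so its counts and a part of those of Psme2 are uncertain. In the immunoproteasome, Psmb10 stood at 43.4 ± 24.7 FPKM, in the range of the constitutive subunits, while Psmb8 had 5.28 ± 4.21 and Psmb9 2.85 ± 1.81 FPKM. The length behind the FPKM of Psmb8 was 19.1% shorter than its exons in GENCODE vM21, and that of Psmg2 39.1%, whereas 47 of 49 lengths were within 1%. Psma8, the testis-specific alpha subunit, was at the edge of detection, with 0.170 FPKM.

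**Figure D1:**
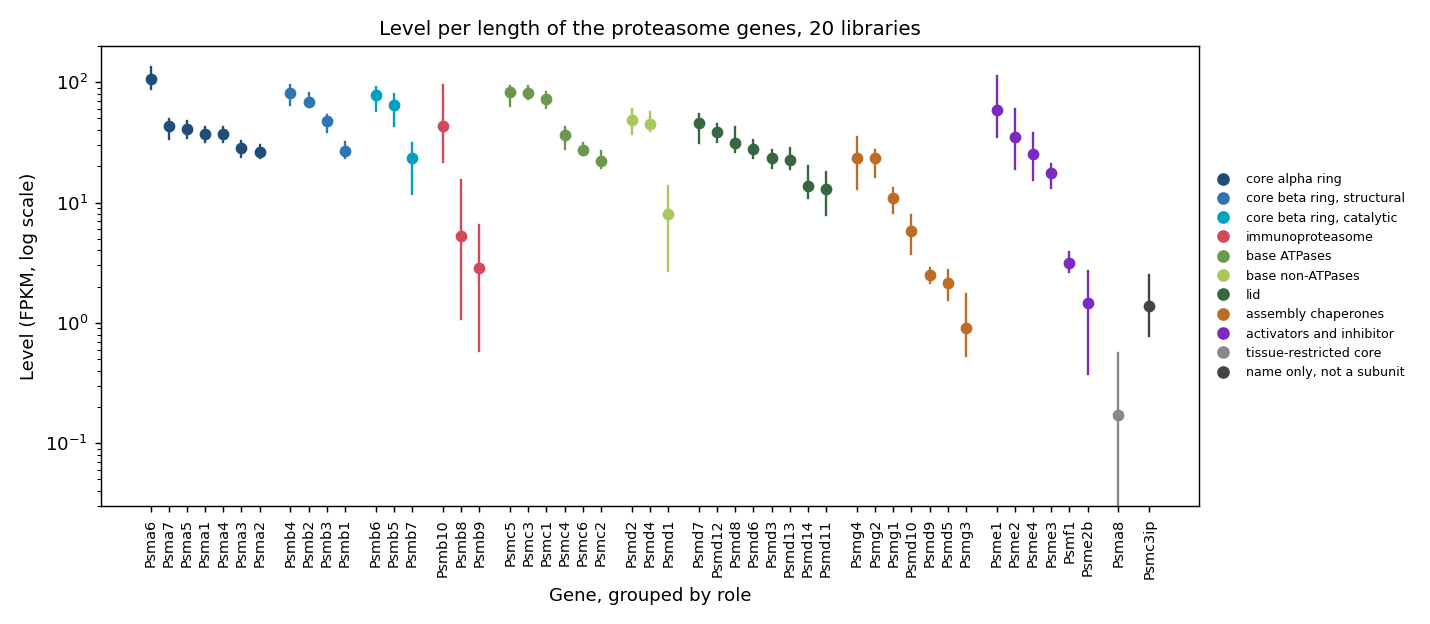
Level per gene length of the 49 members on a log axis (FPKM), grouped by role, with the mean over 20 libraries as a point and the lowest to highest library as a line. Apart from Psma8, the core subunits with the lowest means are Psmb9 and Psmb8, and their lines are long. The line of Psma8 starts at the edge of the axis because a library is at 0.

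The spread over libraries differed by role. The coefficient of variation of CPM over all 20 libraries had a median of 9.92% in the alpha rings, 8.92% in the beta subunits without a cutting site, 9.52% in the base ATPases and 11.7% in the lid. It was 64.4% in the immunoproteasome, with 83.3% for Psmb8. The lid subunit Psmd3, chosen after its values were seen, varied least, with 6.94%. Psmd1 (37.1%), Psme4 (28.1%) and Psmb7 (25.3%) lay above the medians of the core, ATPase and lid lists. After group and series means were removed, the mean pairwise correlation across libraries was 0.49 among the 7 alpha genes, 0.58 among the 6 ATPases, 0.56 among the 8 lid genes and 0.67 among the 3 inducible subunits, while over all 15187 genes it was 0.002. It was lower, at 0.13, among the 3 base subunits that are no ATPase, at 0.11 among the 7 assembly chaperones, at 0.10 among the 6 activators and inhibitor and at 0.01 among the 3 constitutive cutting subunits. These values describe 20 libraries whose depth and RNA are common to all genes.

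Psmb8, which replaces the chymotrypsin-like subunit Psmb5, had the widest range apart from Psma8. It was read at 22.03, 46.5 and 19.3 CPM in S1 to S3, at 21.7, 30.1 and 38.4 in S4 to S6, at 8.85, 12.7 and 12.7 in S7 to S9 and at 9.76, 16.3 and 9.69 in S10 to S12. In the other series it was at 5.68 and 8.29 CPM in WT1 and WT2, at 4.18 and 5.55 in TKO5 and TKO6, and at 3.003, 3.18, 6.19 and 5.63 in TKO1 to TKO4. Every S-numbered library lay above every library of the other series, and within the S series every library labelled female lay above every library labelled male. The genotype labels did not divide the libraries in either series. Psmb8 lies on chromosome 17 of GRCm38 (chr17:34197721-34201454) in the major histocompatibility region, and 14.7% of its exon bases overlap Gm20496 on the opposite strand.

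Psmb9 replaces Psmb6 and lies 9957 bases from Psmb8 (chr17:34181987-34187764), head to head with the peptide transporter Tap1, whose start is 211 bases away. Psmb9 stood at 23.0, 23.2 and 20.6 CPM in S1 to S3, 10.3, 17.0 and 18.5 in S4 to S6, 4.39, 14.0 and 9.22 in S7 to S9 and 9.39, 9.97 and 8.63 in S10 to S12. It was at 5.07 and 9.55 CPM in WT1 and WT2, 5.76 and 3.86 in TKO5 and TKO6, and 2.20, 3.67, 4.38 and 5.69 in TKO1 to TKO4. The series overlapped, with S7 below WT2, and S8 reached above S4. Of the exon bases of Psmb9, 5.79% overlap Tap1 on the opposite strand.

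Psmb10, which replaces Psmb7 and lies on chromosome 8 (chr8:105935735-105938444), was the inducible subunit with the highest level. Its CPM were 121, 163 and 95.6 in S1 to S3, 95.3, 158 and 162 in S4 to S6, 36.9, 70.4 and 51.1 in S7 to S9 and 64.9, 61.3 and 53.5 in S10 to S12. The 8 libraries of the other series lay between 37.8 and 48.4 CPM, with a median of 44.1. S1 to S6 all lay above the 14 other libraries, as they did for Psmb8 and for 0.217% of all genes (0.29% with those that lay below), and S7 lay below every library of the other series.

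Psme1 and Psme2 encode the alpha and beta subunits of the inducible activator and lie on chromosome 14 in tail-to-tail orientation, with 5912 bases between their ends (chr14:55578123-55581529 and chr14:55587441-55591113). Psme1 was at 193, 211 and 138 CPM in S1 to S3, 181, 220.0 and 251 in S4 to S6, 78.0, 143 and 88.4 in S7 to S9, 145, 104 and 101 in S10 to S12 and between 79.5 and 115 in the 8 libraries of the other series, with a median of 99.2. Psme2 was at 94.1, 111 and 68.6 CPM in S1 to S3, 83.5, 103 and 107 in S4 to S6, 41.0, 59.7 and 46.8 in S7 to S9, 64.9, 56.8 and 45.1 in S10 to S12 and between 35.7 and 52.3 in the other series, with a median of 45.8. The pair moved in step, with a Psme1 FPKM of 168 ± 11.95% of that of Psme2 in S1 to S6 (SD, n = 6), 166 ± 18.9% in S7 to S12 (SD, n = 6) and 173 ± 17.5% in the other series (SD, n = 8). For Psme2 each of S1 to S6 lay above all other libraries, again to be read against 0.217% of all genes, whereas for Psme1 S3 lay below S8 and S10. S7 to S12 overlapped with the WT and TKO names in both genes.

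**Figure D2:**
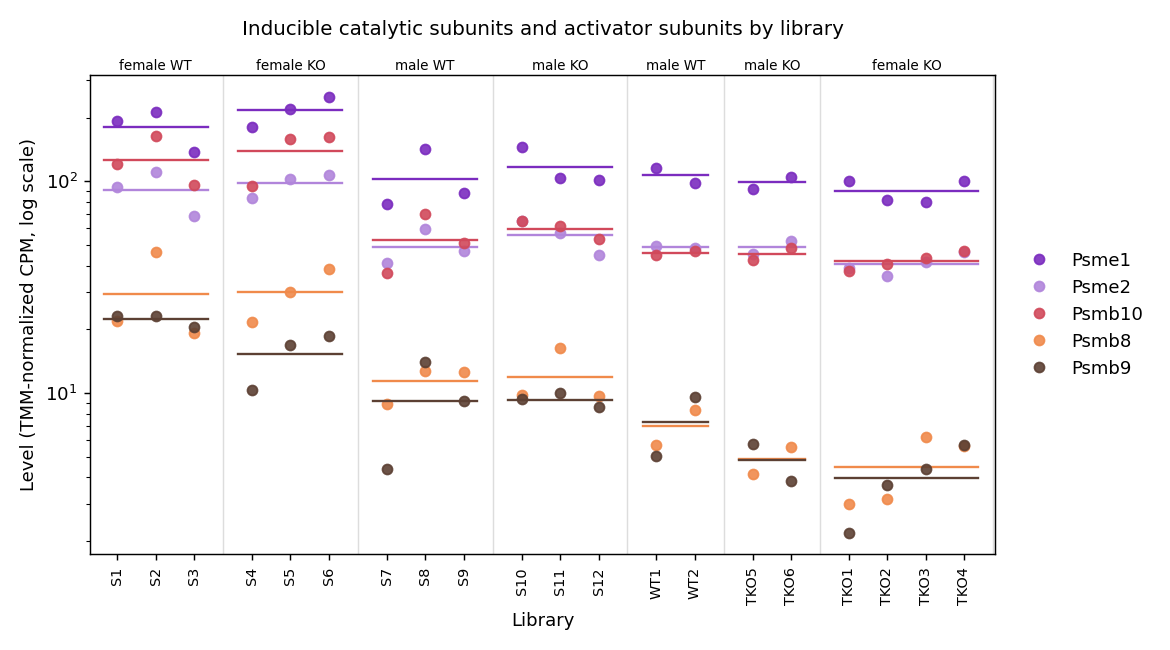
CPM of Psme1, Psme2, Psmb10, Psmb8 and Psmb9 in each of the 20 libraries on a log axis, under the labelled group, with a bar at the mean of the libraries of a group within a name series. In all 5 genes the means of S1 to S3 and of S4 to S6 are the highest.

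The levels of the inducible subunits were set against those of the constitutive subunits they replace, per gene length. The FPKM of Psmb8 was 16.3 ± 4.47% of that of Psmb5 in S1 to S6 (SD, n = 6), 6.63 ± 1.57% in S7 to S12 (SD, n = 6) and 3.07 ± 0.893% in the other series (SD, n = 8). For Psmb9 against Psmb6 the shares were 6.30 ± 1.51%, 3.20 ± 1.07% and 1.81 ± 0.685% in the same order. For Psmb10 against Psmb7 they were 370.4 ± 161%, 171 ± 50.6% and 102 ± 18.5%. Over all 20 libraries the share reached at most 21.2% for Psmb8 and 8.89% for Psmb9, whereas Psmb10 exceeded Psmb7 in 16 of the libraries, S1 to S6 among them. The size of each share depends on the lengths used, which were 1705 bases for Psmb10 and 3421 for Psmb7. For Psmb8 and Psmb5 they were 2736 and 899, and for Psmb9 and Psmb6 3659 and 1872. By counts, Psmb10 lay above Psmb7 in each of S1 to S6 but below it in WT1 (726 and 1746), among others. The wide spread of the last ratio also holds that of Psmb7, described below.

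The question of whether the name series carries a difference in the proteasome genes was put to all libraries. In a fit of all 20 libraries with labelled sex and genotype in the model, the edgeR quasi-likelihood test, with p adjusted by the Benjamini-Hochberg method, called 7 of 49 members between the S-numbered and the WT/TKO-named libraries. This is near the background, since 16.4% of all 15187 genes tested were called. The median log2 fold change was 0.00 over the members and 0.01 over all genes. Of the 7 members, 6 were higher in the S-numbered libraries, where 8.92% of all genes were called higher. They were Psmb8 (log2 fold change 1.76, SE 0.280, adjusted p = 0.000524), Psmb9 (1.27, SE 0.260, adjusted p = 0.00300), Psmb10 (0.94, SE 0.203, adjusted p = 0.00456), Psme2 (0.63, SE 0.165, adjusted p = 0.0146), Psme1 (0.60, SE 0.174, adjusted p = 0.0251) and Psmg3, an assembly chaperone of the core (0.57, SE 0.177, adjusted p = 0.0342). The ranges of CPM did not overlap for 1 of these, Psmb8, where 1.03% of all genes had ranges apart in either direction and 0.665% were higher.

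By role, the 3 inducible subunits were all called, 2 of the 6 activators and inhibitor were called higher and 1 lower, 1 of the 7 assembly chaperones was called, and 0 of the 15 other core subunits tested (Psma8 among them), 0 of the 9 base subunits and 0 of the 8 lid subunits. The member called lower, where 7.53% of all genes were, was Psme4. It encodes a large activator known for the degradation of acetylated histones, and had 181 ± 38.9 CPM in the S-numbered libraries (SD, n = 12) and 259.7 ± 55.6 CPM in the others (SD, n = 8; log2 fold change -0.51, SE 0.145, adjusted p = 0.0218). The unadjusted p was under 0.05 for 10 members, where it was for 32.3% of all genes (17.0% higher and 15.3% lower), and thus also for the base scaffold Psmd2 (-0.21), the chaperone Psmg4 (0.32) and the ATPase Psmc1 (-0.18), and the adjusted p of these was 0.104, 0.134 and 0.137. The constitutive Psmb5, Psmb6 and Psmb7 had log2 fold changes of 0.10, 0.07 and -0.21 with adjusted p of 0.599, 0.586 and 0.420.

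The series difference was recomputed within a labelled sex. With the libraries labelled male alone, S7 to S12 against WT1, WT2, TKO5 and TKO6, 1 member was called, where 4.06% of all genes were. It was Psmb8 (log2 fold change 0.99, adjusted p = 0.0418), and the log2 fold change of Psmb10 was 0.30 (adjusted p = 0.270), of Psmb9 0.64 (adjusted p = 0.223), of Psme1 0.09 (adjusted p = 0.780) and of Psme2 0.10 (adjusted p = 0.692). Among the WT libraries of this fit, S7 to S9 held Xist, and WT1 and WT2 held Y-linked transcripts. S7, S9, S11 and S12 had high atrial sums. The part of either in these values was not tested. With the libraries labelled female KO alone, S4 to S6 against TKO1 to TKO4, 6 members were called, all higher, where 6.59% of all genes were called. They were Psmb8 (2.72, adjusted p = 0.000315), Psmb9 (1.92, adjusted p = 0.00428), Psmb10 (1.72, adjusted p = 0.000360), Psme1 (1.27, adjusted p = 0.000608), Psme2 (1.27, adjusted p = 0.000360) and the lid subunit Psmd8 (0.43, adjusted p = 0.0442). S4 to S6 held Y-linked transcripts and TKO1 to TKO4 held 0 counts of them, so that series and sex-linked expression cannot be told apart in that fit. The KO libraries of both sex labels gave 5 calls, the inducible subunits and Psme1 and Psme2, where 11.2% of all genes were called.

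The calls of Psme1, Psme4 and Psmg3 between the series were lost in several of these fits. Without TKO2, 4 members were called, where 12% of all genes were, and the adjusted p of Psme1 (0.0593), Psme4 (0.0503) and Psmg3 (0.0622) was above 0.05. Psme1 lost its call also without TKO3 (0.0566), and Psme4 and Psmg3 without WT1 (0.0940 and 0.102). Psmg3 lost it as well without WT2, S11, TKO5, S5 or TKO4. Psme4 had a log2 fold change of -0.36 (adjusted p = 0.135) in the KO libraries alone, -0.64 (adjusted p = 0.0890) with male labels alone, -0.25 (adjusted p = 0.367) in the libraries labelled female KO and -0.33 (adjusted p = 0.160) without S7, S9, S11 and S12. Psmg3 had 0.40 (adjusted p = 0.195), 0.57 (adjusted p = 0.215), 0.50 (adjusted p = 0.227) and 0.57 (adjusted p = 0.0604) in the same order, and 0.57 (adjusted p = 0.0760) with no filter on low counts.

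The difference between the sex labels within the S series was tested after these values were seen, so that the choice of comparison is not independent of them. The comparison of S7 to S12 with S1 to S6, with the genotype label as covariate, called 4 of 49 members, all lower in S7 to S12, while 0.866% of 14783 genes were called and 0.318% were called lower. Psmb10 fell by 1.24 on the log2 scale (SE 0.187, adjusted p = 0.0126), from 133 ± 32.8 CPM in S1 to S6 (SD, n = 6) to 56.3 ± 11.9 CPM in S7 to S12 (SD, n = 6). Psmb8 fell by 1.35 (SE 0.234, adjusted p = 0.0230), from 29.7 ± 10.8 to 11.7 ± 2.80 CPM. Psme2 fell by 0.86 (SE 0.146, adjusted p = 0.0230), and Psme1 fell by 0.86 (SE 0.175, adjusted p = 0.0410). The third inducible subunit, Psmb9, had a log2 fold change of -1.002 (SE 0.239) and an adjusted p of 0.0610. At an unadjusted p under 0.05 the lid subunit Psmd8 (-0.24), the core subunits Psmb2 (-0.23) and Psma4 (-0.22) and Psmb9 were lower too, where 14.6% of all genes passed that threshold and 5.54% were lower. The ranges of S1 to S6 and S7 to S12 did not overlap for Psmb8, Psmb10 and Psme2, and were apart for 1.32% of all genes (0.731% higher and 0.586% lower). The direction in edgeR was shared more widely, with 43 of 49 members and 7617 of 14783 genes lower in S7 to S12, at a median of -0.09 over the members and -0.01 over all genes. By limma on log2(FPKM + 1) it was nearly even, with 23 of 49 members higher in S7 to S12 and a median of -0.01, against 0.04 over all genes.

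Leaving out 1 library gave 0 calls without S2 or S12, 1 without S5, S6 or S9, 2 without S11 and up to 5 in the others. The share of all genes called moved as well, from 0.0681% without S2 to 4.11% without S8, the fit with 5 members. The log2 fold change of Psmb10, -1.24 with all 12 libraries, was -1.14 without S2 (adjusted p = 0.0542) and -1.21 without S12 (adjusted p = 0.0562). Psme1 kept its call only in the fits without S8 or S10. Psmb8 lost its call without S2, S5, S6, S9 or S12, and by limma on log2(FPKM + 1) (adjusted p = 0.0533). Psme2 lost its call without S2, S5, S6, S9, S11 or S12. With the summed Y-linked level as covariate, which coincides with the genotype label there, 0 members were called, at -1.31 for Psmb10, -1.32 for Psmb8, -0.83 for Psme1 and -0.84 for Psme2 (adjusted p = 0.168, 0.349, 0.395 and 0.322). Without the 4 libraries of high atrial sums, which left S8 and S10 against S1 to S6, 0 members and 0.014% of all genes were called. The log2 fold changes were then -0.97 for Psmb10, -1.40 for Psmb8, -0.46 for Psme1 and -0.60 for Psme2, and 28 of 49 members were higher in S8 and S10, at a median of 0.02. The difference of the series effect between the sex labels, tested as an interaction over 20 libraries and likewise added, was -1.41 for Psmb10 (SE 0.256, adjusted p = 0.0320) and -1.17 for Psme2 (SE 0.206, adjusted p = 0.03002), where 0.158% of all genes were called and 0.0724% were called lower. DESeq2 called 5 members in that test, and 2.06% of all genes. Both calls in edgeR were lost without any 1 of WT1, WT2, S5, S6, S9, TKO1, TKO2, TKO3 and TKO6, and that of Psmb10 also without TKO5, at values over all 20 such fits of -1.55 to -1.28 for Psmb10 and -1.26 to -1.09 for Psme2. They were lost too with the Y-linked covariate (-1.19 and -0.97, adjusted p = 0.9997), without the libraries with Bmp10 (-1.14, adjusted p = 0.395, and -0.94, adjusted p = 0.369), without the 4 libraries of high atrial sums (-1.11 and -0.91, adjusted p = 0.570) and without the libraries against their sex label (-1.15 and -0.94, adjusted p = 0.961). In that test 12 members had an unadjusted p under 0.05, all lower, where 12.4% of all genes passed that threshold and 4.49% were lower, among them Psme1 (-1.12, adjusted p = 0.0755), Psmb8 (-1.70, adjusted p = 0.0905) and the core subunit Psmb2 (-0.45, adjusted p = 0.150). Libraries with Xist (S1 to S3) and with Y-linked transcripts (S4 to S6) stood on the same, higher side of the division within the S series.

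**Figure D3:**
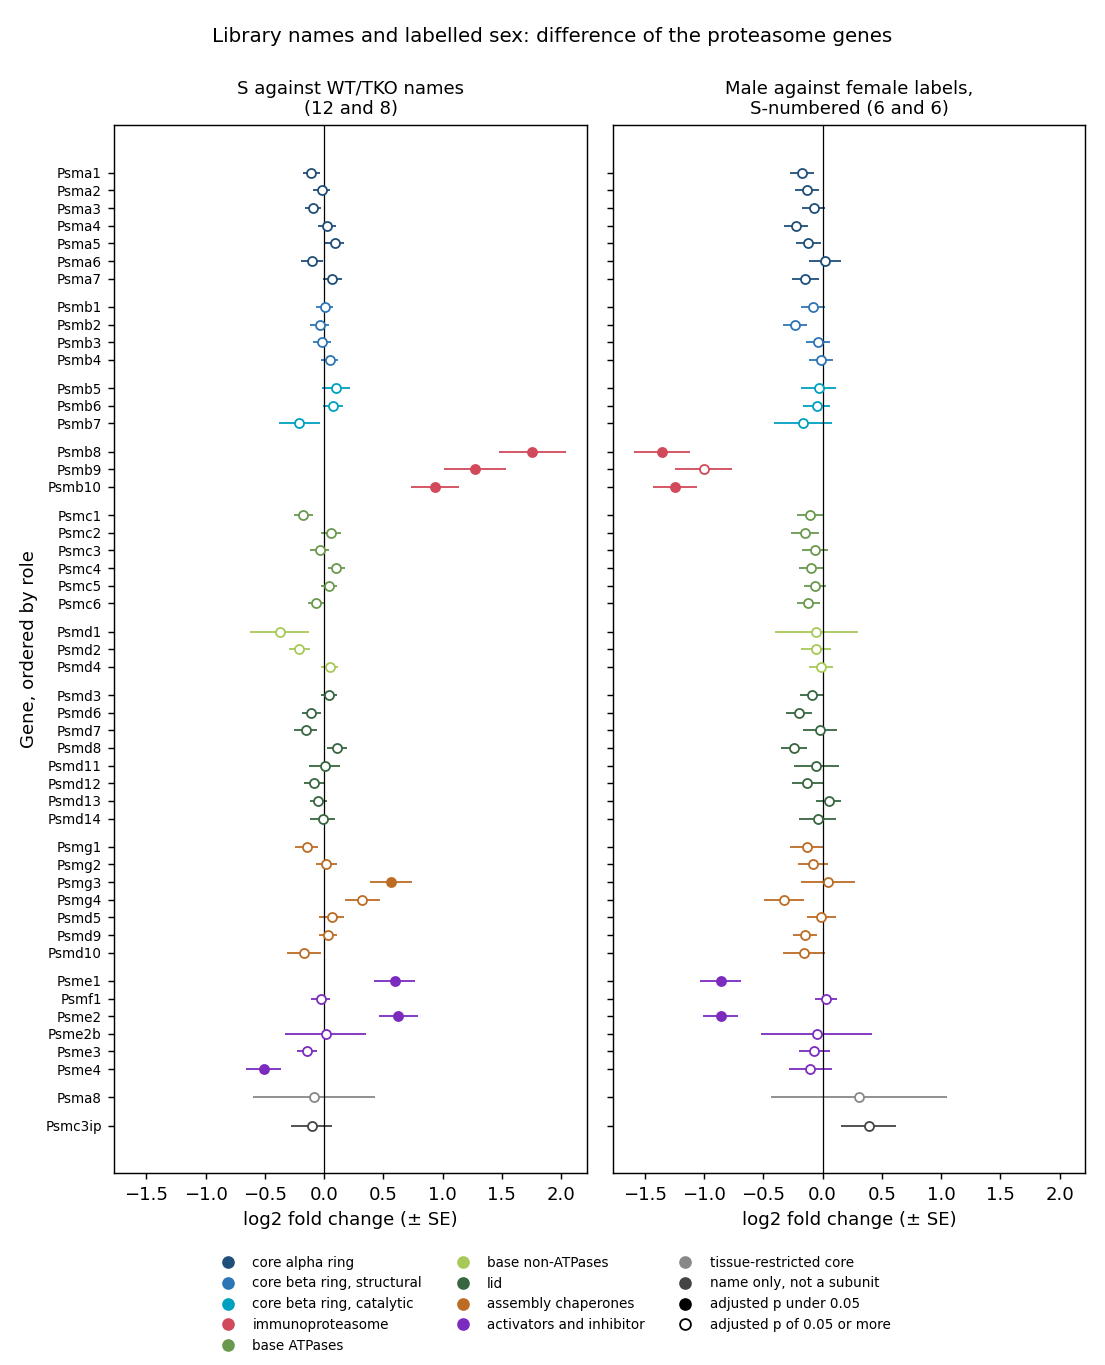
Log2 fold change with its SE of each member, ordered by role, for S-numbered against WT/TKO-named libraries (left, 12 and 8) and for libraries labelled male against female within the S series (right, 6 and 6), with filled points for an adjusted p under 0.05. The inducible subunits and Psme1 and Psme2 lie to the right of 0 on the left and to the left of 0 on the right, and no other core, base or lid subunit is filled in either.

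Genes of class I antigen presentation were listed beside the members. In the series comparison 13 of 13 genes of this list were higher in the S-numbered libraries and 8 had an adjusted p under 0.05, where 8.92% of all genes were called higher. Tap1 was at 37.1 ± 9.65 CPM in S1 to S6 (SD, n = 6), 16.9 ± 2.77 in S7 to S12 (SD, n = 6) and 12.3 ± 4.14 in the other series (SD, n = 8; log2 fold change 0.90, adjusted p = 0.00816). Called too were the class I heavy chains H2-K1 (1.28) and H2-D1 (0.93), their light chain B2m (1.13), the class I transactivator Nlrc5 (0.70), the transporter subunit Tap2 (0.52) and the loading factor Tapbp (0.38). Between S7 to S12 and S1 to S6, 11 of 13 were lower and 4 were called lower, where 0.318% of all genes were, Tap1 (-1.13, adjusted p = 0.00884), B2m (-1.28, adjusted p = 0.0230), H2-K1 (-1.30, adjusted p = 0.0230) and H2-D1 (-0.82, adjusted p = 0.0411). In the interaction of name series and sex label 2 of the 13 were called, where 0.158% of all genes were, Tap1 (-1.50, adjusted p = 0.0329) and B2m (-1.61, adjusted p = 0.0436).

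Leukocyte transcripts moved with the series. Of 18 leukocyte markers 15 were tested, 15 were higher in the S-numbered libraries and 10 were called, where 8.92% of all genes were called higher. Their summed level was 263 to 334 CPM in the WT/TKO-named libraries, 380.1 to 590.2 in S7 to S12 and 397 to 668 in S1 to S6, and no marker of the list was at 0 in every library. Between S7 to S12 and S1 to S6 the sums overlapped, and 12 of 15 markers were lower with 0 called (7 at an unadjusted p under 0.05). The part of leukocytes in the level of the inducible subunits was not tested, and in heart tissue more cells of a type and more RNA per cell cannot be told apart. The atrial markers were called higher in the S-numbered libraries, 6 of 6 against the same 8.92%, with sums of 10.3 to 18.3 CPM in the WT/TKO-named libraries, 14.2 to 351 in S1 to S6 and 11.6 to 7276 in S7 to S12. The highest sums lay in S7 to S12. Of 7 adipocyte markers 7 were higher and 5 were called, against 8.92% again. Between S7 to S12 and S1 to S6, 6 of 6 atrial markers were higher in S7 to S12 with 1 called. There 5 of 7 adipocyte markers were higher and 2 lower, with 0 called, where 0.866% of all genes were called. S7 stood apart in adipocyte genes, with 1660 counts of Adipoq and 7083 of Cfd. The part of these cells in the members' levels was not tested.

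Other genes around the proteasome were called between the name series in shares to be read against the 16.4% of all genes called. Of the 15 tested regulators of proteasome transcription, 1 was called higher, the NF-Y subunit Nfyc (log2 fold change 0.27), and 2 lower, the factor Foxo3 (-0.50) and Ddi2, the protease that releases active Nfe2l1 (-0.46). Nfe2l1 itself, which raises proteasome genes when the proteasome is impaired, had -0.29 (SE 0.141, adjusted p = 0.154). Of 6 genes of ubiquitin and its activating enzymes 2 were called higher, among them the ubiquitin fusion gene Rps27a (0.27). Of 17 tested proteasome-associated genes, 2 were called lower, the shuttle factor Ubqln4 (-0.29) and the ligase Ube3a (-0.23), while the core assembly factor Pomp had 0.18 (adjusted p = 0.248). Of 9 ubiquitin ligases of cardiac muscle 9 were lower and 1 was called, the atrophy ligase Fbxo32 (-0.93, adjusted p = 0.0135).

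The question of the study was the difference between genotypes. Among the libraries labelled male, 48 members were tested (Psma8 did not pass the filter), 23 were higher and 25 lower in the KO libraries, and 0 were called, as were 0% of all 14481 genes. The median log2 fold change was -0.03 over the members and -0.01 over all genes. At an unadjusted p under 0.05 stood 1 member, where 4.75% of all genes did and 2.61% were lower. It was Psmc3ip, the gene that is no subunit, with 3.46, 2.74, 3.51, 2.89 and 4.12 CPM in the libraries labelled WT and 2.13, 2.10, 2.31, 2.26 and 1.93 in those labelled KO (log2 fold change -0.65, SE 0.196, adjusted p = 0.882). The ranges of the groups did not overlap, at levels of a few CPM, and were apart for 0.599% of all genes (0.23% lower).

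The study named the ATPase Psmc3 and the lid subunit Psmd13 as hub genes of a co-expression module that correlated negatively with the KO trait. It described 3 mice per group, and the module was not rebuilt here. As single genes, Psmc3 and Psmd13 overlapped between the genotype labels of either sex. Psmc3 had 213 ± 18.0 CPM in male WT (SD, n = 5), 217 ± 26.0 in male KO (SD, n = 5), 206 ± 25.2 in female WT (SD, n = 3) and 212 ± 16.3 in female KO (SD, n = 7). Its log2 fold change was 0.01 (SE 0.112, adjusted p = 0.988) with male and 0.11 (SE 0.130, adjusted p = 0.687) with female labels. Psmd13 had 80.5 ± 5.60 CPM in male WT (SD, n = 5), 78.6 ± 9.13 in male KO (SD, n = 5), 69.9 ± 2.14 in female WT (SD, n = 3) and 75.5 ± 5.29 in female KO (SD, n = 7), at log2 fold changes of -0.05 (SE 0.105, adjusted p = 0.935) and 0.16 (SE 0.117, adjusted p = 0.498). Of their exon bases, 8.25% overlap Slc39a13 and 10.1% overlap Sirt3 on the opposite strand.

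Psmb5 lay between 40.9 and 63.9 CPM in male WT, 51.0 and 74.6 in male KO, 52.2 and 72.1 in female WT and 41.0 and 62.8 in female KO. Psmb6 lay between 137 and 158 CPM, 129 and 172, 133 and 188, and 115 and 161 in the same order. The groups overlapped in both genes. Psmb7 had 81.5 ± 21.1 CPM in male WT (SD, n = 5), 72.8 ± 16.8 in male KO (SD, n = 5), 61.6 ± 28.7 in female WT (SD, n = 3) and 92.8 ± 11.9 in female KO (SD, n = 7). Psme3 had 53.0 ± 5.16, 50 ± 5.48, 45.7 ± 9.65 and 56.6 ± 2.03 CPM in the same order, and Psme4 219 ± 83.6, 207 ± 57.6, 167 ± 50.04 and 231 ± 46.0 CPM. The largest SD of Psmb7 was that of the 3 female WT libraries. Of the constitutive cutting subunits with male labels, Psmb5 had a log2 fold change of 0.23 (SE 0.147, adjusted p = 0.882), Psmb6 of 0.02 (SE 0.107, adjusted p = 0.980) and Psmb7 of -0.17 (SE 0.197, adjusted p = 0.887). The inducible Psmb8, Psmb9 and Psmb10 had -0.17, -0.23 and 0.09, with adjusted p of 0.905, 0.906 and 0.928. The activators Psme1, Psme2, Psme3 and Psme4 lay between -0.10 (Psme3) and 0.09 (Psme2). By role the medians ran from -0.17 for the immunoproteasome to 0.06 for the beta subunits without a cutting site and 0.06 for the assembly chaperones.

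Among the libraries labelled female, 37 of 49 members were higher in those labelled KO, at a median log2 fold change of 0.13 against -0.02 over all genes, and 0 members were called, while 8 of 14511 genes (0.0551%) were. All 7 alpha subunits, 7 of the 8 lid subunits and 5 of the 6 ATPases were on the higher side. The lean was not stable in size, with a median over the members of 0.02 both without the series covariate and in 1 fit of all libraries, and of 1.79 with the Y-linked level as covariate, which coincides with the genotype label in the S-numbered libraries of this comparison. At an unadjusted p under 0.05 stood 6 members, all higher, where 17.9% of all genes passed that threshold and 7.15% were higher. They were the cutting subunit Psmb7 (0.68, SE 0.251, adjusted p = 0.213), the base chaperones Psmd5 (0.43, adjusted p = 0.218) and Psmd10 (0.57, adjusted p = 0.225), the lid subunits Psmd7 (0.34, adjusted p = 0.245) and Psmd6 (0.27, adjusted p = 0.247) and the nuclear activator Psme3 (0.32, adjusted p = 0.273).

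Psmb7 shows what this comparison rests on. It was at 93.8, 51.8 and 39.1 CPM in S1 to S3 and at 93.7, 94.1 and 109 in S4 to S6. TKO1 to TKO4, which inform the spread but not the fold change, had 89.5, 106, 80.3 and 77.0 CPM. S2 and S3 were low and S1 stood among the KO libraries. Without S1, 5 of 48 members were called, where 16.8% of all genes were, so that the members' share lay below the background. They were Psmb7 (log2 fold change 1.12, adjusted p = 0.00299), Psmd1 (1.62, adjusted p = 0.00355), Psmd11 (0.74, adjusted p = 0.00570), Psmd7 (0.51, adjusted p = 0.0132) and Psme3 (0.50, adjusted p = 0.0177). With no filter on low counts 2 of 49 were called, Psmb7 and Psmd1, where 4.06% of all genes were. Of the exon bases of Psmb7, 11.8% overlap Nek6 on the opposite strand.

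Of the inducible subunits with female labels, Psmb8 and Psmb10 were on the higher side and Psmb9 on the lower, and a difference from the other members was not tested. Psmb8 had a log2 fold change of 0.04 (SE 0.337, adjusted p = 0.967), Psmb9 of -0.55 (SE 0.269, adjusted p = 0.305) and Psmb10 of 0.13 (SE 0.217, adjusted p = 0.793). The constitutive Psmb5 had -0.23 (SE 0.173, adjusted p = 0.504) and Psmb6 -0.16 (SE 0.158, adjusted p = 0.633), on the other side of 0 from Psmb7. Psme1, Psme2 and Psme4 had 0.27, 0.10 and 0.32, with adjusted p of 0.451, 0.797 and 0.458.

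**Figure D4:**
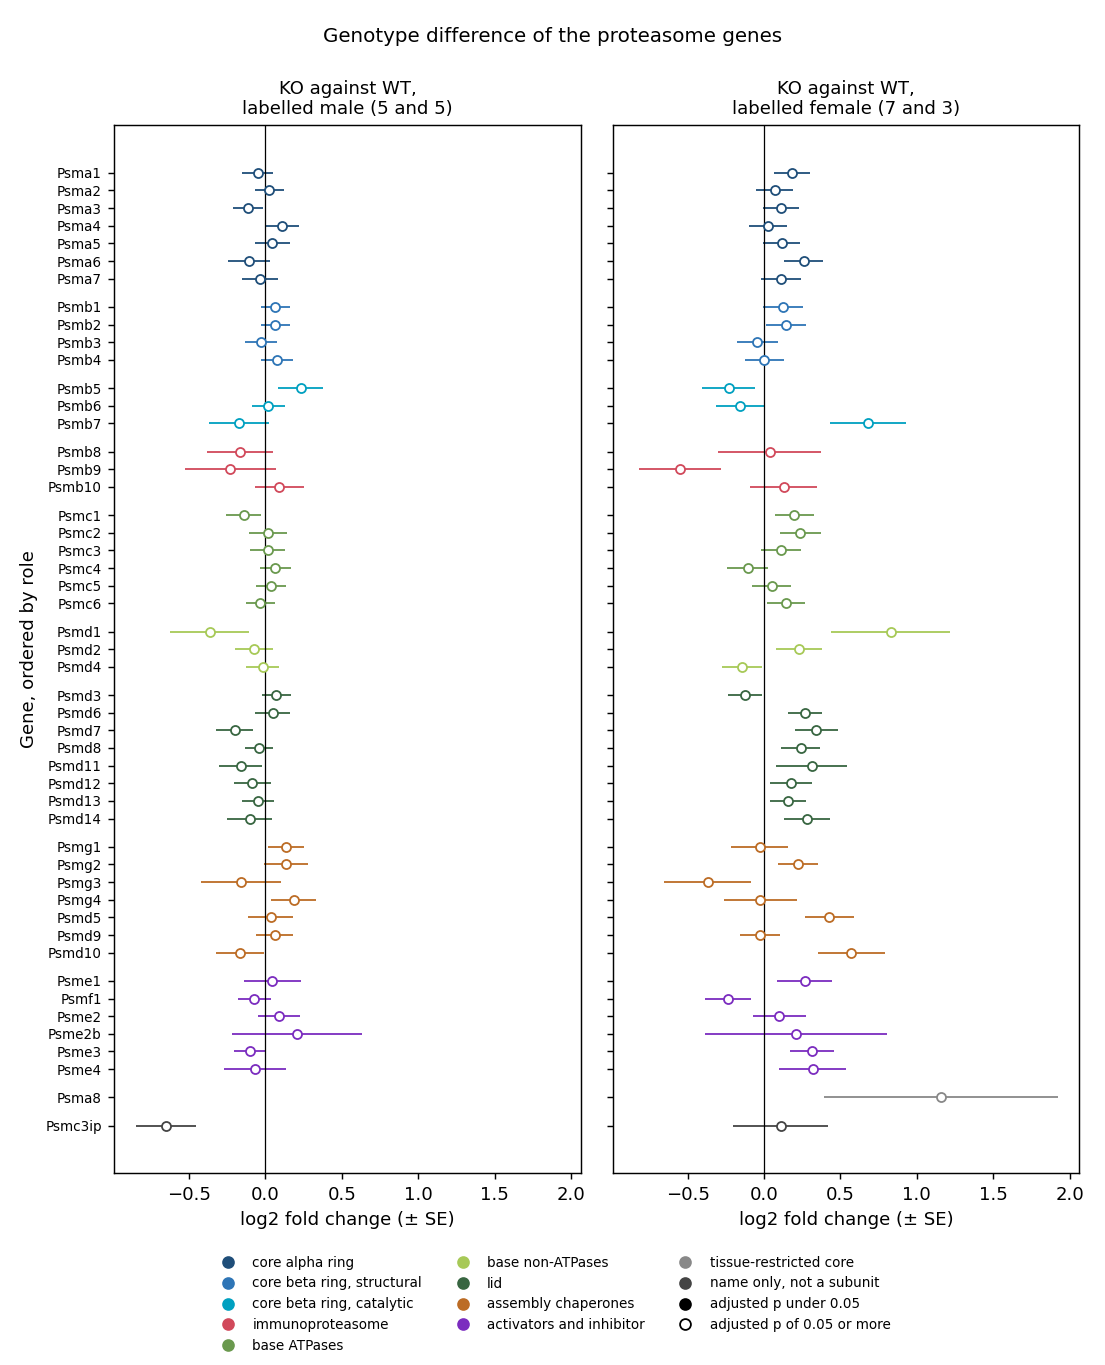
Log2 fold change of KO against WT with its SE for each member, ordered by role, in the libraries labelled male (left, 5 KO and 5 WT) and female (right, 7 KO and 3 WT), with open points for an adjusted p of 0.05 or more. All points are open, and 23 of 48 lie to the right of 0 with male labels and 37 of 49 with female labels.

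Over all 20 libraries, with labelled sex and series in the model, 32 members were higher and 17 lower in those labelled KO, 0 were called, and 0% of 15187 genes were. The median was 0.02 over the members and -0.01 over all genes. The lean turned with the Y-linked level as covariate, where 7 of 49 were higher (median -0.06), and without the libraries against their sex label, where 6 of 48 were (median -0.07). Leaving out 1 library gave 19 (without S3 or S10) to 37 (without S11) of 49 on the higher side. Psmb9 alone had an unadjusted p under 0.05, where 4.93% of all genes did and 2.82% were lower (-0.57, SE 0.245, adjusted p = 0.996). Psmb8 had -0.31 (adjusted p = 0.996) and Psmb10 -0.08 (adjusted p = 0.996). The ligase Trim63 had 0.64 (adjusted p = 0.974). Of the antigen processing genes, 12 of 13 were on the lower side with 0 called, among them Tap1 (-0.54, adjusted p = 0.968) and Nlrc5 (-0.63, adjusted p = 0.861), and the leukocyte markers leaned the same way in 14 of 15.

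The difference of the genotype effect between the sex labels was called for 0 members and 0% of 15187 genes. An unadjusted p under 0.05 was reached by 5 members, against 15.6% of all genes (8.94% higher and 6.7% lower). Psmb5 was higher in the male than in the female contrast (difference of log2 fold changes 0.51, SE 0.219, adjusted p = 0.284). Psmd1 (-1.08, SE 0.475, adjusted p = 0.288), Psmc3ip (-0.84, adjusted p = 0.248), Psmd7 (-0.46, adjusted p = 0.242) and Psme3 (-0.34, adjusted p = 0.318) were lower. Of the other listed genes 0 were called, and those with the smallest p were Mafk (-1.04, adjusted p = 0.223), Tap2 (0.63, adjusted p = 0.226) and Irf1 (0.61, adjusted p = 0.226). Without S1 the count rose over all genes, with 7.45% of them called and 5 of 49 members, Psmb7 (-1.12, adjusted p = 0.0344), Psmd1 (-1.87, adjusted p = 0.0157), Psmd11 (-0.82, adjusted p = 0.0227), Psmd7 (-0.63, adjusted p = 0.0262) and Psme3 (-0.52, adjusted p = 0.0409).

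Between libraries of 1 group the level of Psmd1, the base scaffold that carries the ubiquitin receptor Adrm1, ranged widely. Psmd1 was at 71.1, 25.7 and 19.1 CPM in S1 to S3, 76.4, 61.4 and 69.3 in S4 to S6, 84.4, 57.9 and 29.2 in S7 to S9 and 54.8, 40.4 and 36.5 in S10 to S12. It was at 89.3 and 54.1 CPM in WT1 and WT2, 64.2 and 52.1 in TKO5 and TKO6 and 68.6, 105, 66.2 and 49.5 in TKO1 to TKO4. S2, S3, S9, S11 and S12 were the 5 lowest, from 3 groups and both genotype labels. Their mitochondrial share was 30.4%, 25.6%, 19.5%, 22.5% and 21.3%, and its part in these levels was not tested. Psmd1 lies on chromosome 1 (chr1:86064387-86139151), and 7.61% of its exon bases overlap Gm21972 on its own strand or Htr2b on the opposite strand.

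Psmb7 was low in the same 5 libraries and Psme4 in 4 of them. Psmb7 was at 49.2, 53.8 and 56.2 CPM in S9, S11 and S12 beside 51.8 and 39.1 in S2 and S3, and at 108 and 106 CPM in WT1 and TKO2, the libraries in which Psmd1 was highest. Psme4 was at 154, 125, 129 and 129 CPM in S2, S3, S9 and S11, at 176 in S12, near its mean of 181 in the S-numbered libraries, and at 352 and 319.7 in WT1 and TKO2. Psmb5 ran the other way in S7 (40.9 CPM) and TKO2 (41.0), its lowest libraries. Across 20 libraries Psmd1 had a Pearson correlation of 0.94 with Psmb7, 0.90 with Psme3, 0.89 with Psmd7 and -0.73 with Psmb5, a description without a test over libraries that share series and depth. Nfe2l1 lay along much the same order, with 238 and 278 CPM in S3 and S2, 629 in WT1, 607 in TKO2 and a correlation of 0.88 with Psmd1. S7 departed from it, with 1248 counts of Psmd1, 2583 of Psme4 and 5047 of Nfe2l1, against 1445, 5701 and 10183 in WT1.

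**Figure D5:**
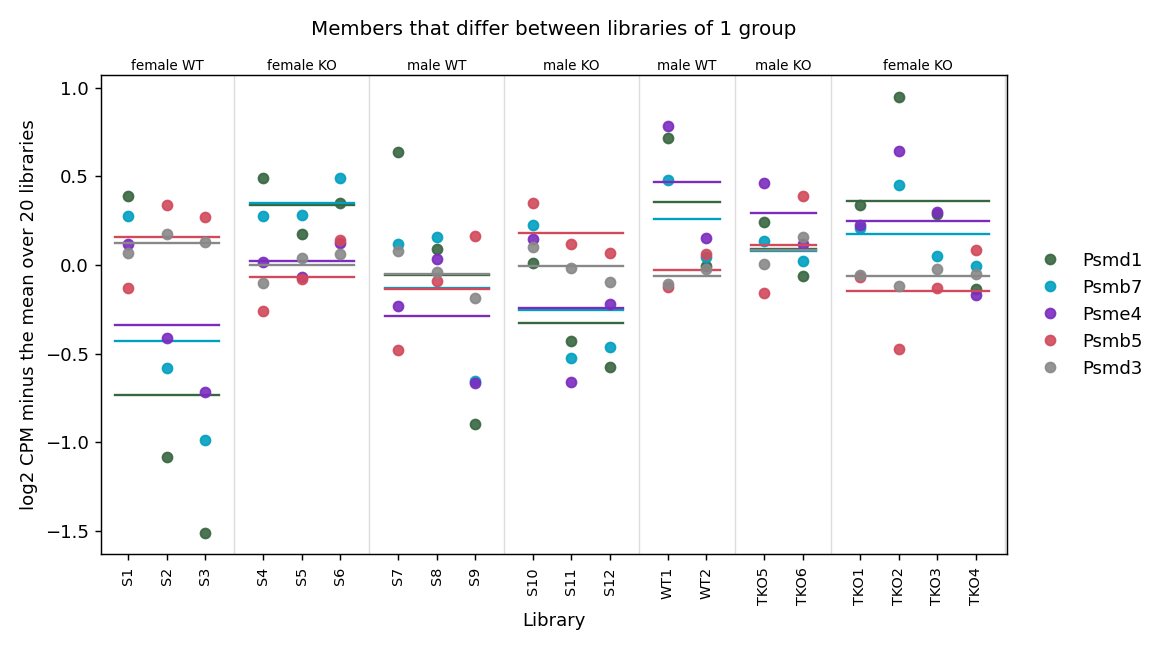
Log2 CPM of Psmd1, Psmb7, Psme4, Psmb5 and Psmd3 in each library, minus the mean of the gene over 20 libraries, under the labelled group, with a bar at the mean of the libraries of a group within a name series. Psmd1, Psmb7 and Psme4 drop together in S2, S3 and S9, while Psmd3, the member that varied least, stays near 0.

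Apart from the sex-linked genes, the other listed genes gave no call between the genotype labels. With female labels the 5 sex-linked genes were called, 4 higher and 1 lower in the libraries labelled KO. With male labels 2 of 17 tested proteasome-associated genes, 4 of 15 regulators and 3 of 13 antigen processing genes were higher in the libraries labelled KO, and Nfe2l1, Pomp and Tap1 had log2 fold changes of -0.12, 0.05 and -0.25. With female labels 14 of 17 proteasome-associated genes, 9 of 15 regulators and 7 of 13 antigen processing genes were higher. The muscle ligase Trim63 had 1.42 (SE 0.353, adjusted p = 0.141), Mafk, a dimer partner of Nfe2l1, 0.58 (adjusted p = 0.203) and Nlrc5 -0.66 (adjusted p = 0.203). Nfe2l1, Pomp and Tap1 had 0.45, 0.27 and -0.44, with adjusted p of 0.327, 0.362 and 0.336. The atrial markers moved with the female contrast, 5 of 5 higher in the libraries labelled KO with 0 called, at summed levels of 14.2 to 42.7 CPM in female WT and 10.9 to 351 in female KO, and their part in the members' lean was not tested.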

How the data were processed

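RNA of mouse heart tissue was sequenced as poly(A)-selected libraries. The authors deposited raw read counts per gene and FPKM values (reads per kilobase of gene scaled to depth). HISAT2, HTSeq 0.6.1p2, DESeq2 1.26.0 and the GRCm38 build are named in the submitters' processing notes, and the strand setting and annotation version are not given in the sources used here. Gene positions were read from GENCODE vM21.

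Counts were tested with edgeR 4.0.16 (R 4.3.3), using TMM factors, the quasi-likelihood test and Benjamini-Hochberg adjustment over all genes that reached 10 counts in 3 or more libraries of the fit. "Called" means an adjusted p under 0.05. The SE was taken from the fold change and its F statistic. The name series was a covariate of each genotype comparison. Levels are CPM of library totals scaled by TMM factors or, between genes, FPKM. DESeq2 1.42.0, limma 3.58.1 on log2(FPKM + 1), another normalization, other filters and covariates and 92 fits leaving out 1 library were the alternatives. The comparison of sex labels within the S series, the interaction of name series and sex label, and the fits on labelled male or female KO libraries alone, without the libraries holding Bmp10 (S7, S9 and S12), without those over 1000 CPM of atrial markers (S7, S9, S11 and S12) or without libraries against their sex label were added after the data were seen. Each test was tested on simulated counts, where edgeR called 99.5% to 100% of 200 changed genes.

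Named were the cutting subunits, Psme1 to Psme4, Psmc3, Psmd13, the highest and lowest member per length of each role and up to 5 members a direction with the smallest unadjusted p under 0.05. Genes outside the family were named when called, or at an unadjusted p under 0.05 with a log2 change of at least 0.58, and Nfe2l1, Pomp and Tap1 always. Some genes outside the family that this rule takes are not reported here. Members and lists were chosen with earlier results of these data known. Over 44 pairs of libraries of a group, 0 were identical, and the lowest chi-square per degree of freedom was 10.4.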

Additional observations from a re-analysis of the deposited data

Results flagged for a closer look

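The effect of the name series differed between the sex labels for Psmb10 (-1.4103 on the log2 scale, labelled male minus female) and Psme2 (-1.1742), by the interaction test in edgeR given above, and both calls were lost in 9 of 20 fits leaving out 1 library and under 4 other alternatives. Among 57 groups of 4 to 10 libraries checked for 1 library standing apart, 2 were found, and chance gives about 1 in 20. Psmd13 was highest in S6 of the libraries labelled female KO, at 86.7879 CPM, and Psme1 was highest in S10 of the libraries labelled male KO, at 144.9099 CPM.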

How the results depend on the processing

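No member was called between the genotype labels with male labels, or over all 20 libraries, under any alternative that was run. With female labels 2 members were called with no filter on low counts (4.06% of all genes), and leaving out 1 library gave 0 to 5 calls, the 5 without S1 (16.8% of all genes). For the difference between sex labels the range was likewise 0 to 5, with 5 without S1 (7.45% of all genes). Between the name series, libraries labelled male alone gave 1 call, those labelled female KO alone 6 and the KO libraries alone 5, and leaving out 1 library gave 4 (without TKO2) to 7. There limma on log2(FPKM + 1) gave 9 calls (16.1% of all genes), with the ATPase Psmc4 and the chaperone Psmg4 added, both higher. Without the libraries against their sex label the ATPase Psmc1 was called lower (18.7% of all genes). Between the sex labels within the S series, the Y-linked covariate gave 0 calls, and so did leaving out the libraries with Bmp10 or the 4 of high atrial sums, while leaving out 1 library gave 0 (S2 or S12) to 5 (S8). For the interaction of name series and sex label, DESeq2 (2.06% of all genes) and the fit with no filter (1.22%) gave 5 calls each, and the Y-linked covariate, leaving out the libraries with Bmp10, leaving out the 4 of high atrial sums and leaving out the libraries against their sex label gave 0. Leaving out 1 library gave 0 (without WT1, WT2, S9, TKO6, S5, S6, TKO1, TKO2 or TKO3) to 4 (without S8, 1.73% of all genes). The causes were not tested. No result reversed its direction with a call. The libraries against their sex label could not be left out of the female genotype comparison or of the comparison within the S series. No paired analysis was possible because the labels give the libraries no replicate numbers shared between groups. Depth limits Psma8, which had at least 10 counts in 4 libraries.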
